A study of Mus musculus with 12 samples.

Results

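The nuclear genes for the subunits of the oxidative phosphorylation complexes were examined in mouse liver. They were taken by name, as every row of the deposited expression table whose identifier, or any symbol joined in it by "and", begins with Nduf, Uqcr, Cox4 to Cox8 or Atp5, or is Sdha, Sdhb, Sdhc or Sdhd. The rule used no measured value. It found 84 of the table's 19852 rows: 39 for complex I, 4 for complex II, 7 for complex III, 17 for complex IV and 17 for complex V. Of these, 72 encode subunits of the liver complexes (20 core and 52 accessory), 6 encode isoforms known from other tissues, and 6 share the prefix without encoding a subunit. The subunits encoded in mitochondrial DNA are not analysed here.

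Livers of C57BL/6 animals, 20 weeks old, gave 12 libraries, 3 for each combination of genotype and sex. The genotypes were ARE-Del and wild-type (WT), the latter from the same litters, per the series text. ARE-Del lacks the AU-rich element of the untranslated region of Ifng, a stretch that shortens the life of this mRNA, and the series used it as a model of lasting interferon-gamma expression. All groups share strain, age and tissue. The protocol text attached to every sample speaks of ARE-Del-/- mice, also for the WT samples, and whether the 3 samples of a group came from 3 animals is not spelled out beyond a group size of 3. P-values therefore measure the spread between these samples, which may be partly technical.

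Oxidative phosphorylation makes ATP from the electrons of NADH and succinate. Complex I takes electrons from NADH and complex II from succinate, ubiquinone carries them to complex III, cytochrome c carries them on to complex IV, which reduces oxygen, and complex V (ATP synthase) uses the resulting proton gradient. Hepatocytes are rich in mitochondria, and most subunits are encoded in the nucleus and imported, while a small set is made inside the organelle.

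The tissue label was checked against marker genes. Hepatocyte markers (12 genes, albumin among them) summed to 28160 to 50680 RPKM, while 9 skeletal and cardiac muscle markers summed to 0.194 to 2.34 RPKM. RPKM is a read count scaled to transcript length and library total. Ifng itself was listed at 0 to 0.0382 RPKM in the WT libraries and at 0.0742 to 0.238 RPKM in the ARE-Del libraries, with no overlap. The library labelled female ARE-Del 2 stood apart from its label: it held 0.0456 RPKM of Xist, the RNA of the inactive X chromosome, against 33.0 to 45.6 RPKM in the other 5 female libraries, and none of the Y-linked Ddx3y. For most of the calls among female ARE-Del values, the counts or the calls lost without it are given. Albumin took 13.8% to 16.5% of summed RPKM in females and 8.56% to 12.5% in males. Relative depth, estimated from the steps of low values, ran from 0.909 to 1.45 times that of female WT 1. Correlations of log2 values within a group were 0.988 to 0.994.

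These genes were among the more abundant liver transcripts. The 78 that passed the filter on low values (at least 0.5 RPKM in at least 3 libraries) had a median level of 22.3 RPKM, against 2.32 RPKM for all 10568 genes tested, and 73 of the 78 lay above that median. The 6 that did not pass were Ndufa4l2, Cox4i2, Cox6a2, Cox6b2, Cox8b and Atp5l-ps1. The highest was Atp5b, the catalytic beta subunit of ATP synthase, at 120 to 146 RPKM over the 12 libraries. Cox6a1, a small subunit of cytochrome c oxidase, followed at 110.0 to 136 RPKM, and Atp5a1, the alpha subunit that alternates with beta, at 108 to 131 RPKM. These ranges overlap, so the order of the 3 is not settled.

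Levels within a complex spanned a wide range although the proteins assemble together. In complex I, Ndufa4 (66.6 to 100.4 RPKM) and Ndufb11 (49.2 to 64.7 RPKM) were highest, and the joined row Adck2andNdufb2 (1.99 to 2.5 RPKM) was the lowest row that holds a subunit. Ndufa4 is kept with complex I by its name, though the protein was later assigned to complex IV. In complex III the highest were Uqcrb (56.4 to 77.7 RPKM), Uqcrfs1, the Rieske iron-sulfur protein (41.7 to 54.3 RPKM), and Uqcrh (43.7 to 53.3 RPKM). The 4 genes of complex II were more even. Sdha, the flavoprotein that oxidises succinate, had 28.2 to 34.7 RPKM. Sdhb, the iron-sulfur subunit, had 14.8 to 18 RPKM. The membrane anchors had 19.9 to 23.6 RPKM (Sdhc) and 13.0 to 15.4 RPKM (Sdhd, in the joined row AU019823andSdhd).

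Isoforms typical of other tissues were at or near the floor. In cytochrome c oxidase the liver forms Cox6a1, Cox8a (66.3 to 83.8 RPKM), Cox6b1 (63.7 to 77.0 RPKM) and Cox4i1 (47.3 to 60.1 RPKM) were among the highest genes. Their counterparts of muscle, testis or lung had at most 0.114 RPKM (Cox6a2), 0.231 RPKM (Cox8b), 0.144 RPKM (Cox6b2) and 0.231 RPKM (Cox4i2). Cox7a1, the form of heart and muscle, passed the filter at 0.388 to 1.04 RPKM beside 14.4 to 20.6 RPKM for its liver partner Cox7a2. Ndufa4l2, a hypoxia-induced relative of Ndufa4, had 0.161 to 0.438 RPKM. The 3 genes for subunit c, the ring of the proton channel, were all present, with Atp5g3 at 40.5 to 58.7 RPKM, Atp5g1 at 11.6 to 15.5 RPKM and Atp5g2 at 9.52 to 11.4 RPKM. Many of these genes have processed copies elsewhere in the genome, and how reads with several matches were counted is not given in the sources used here, so single levels carry that uncertainty.

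**Figure D1:**
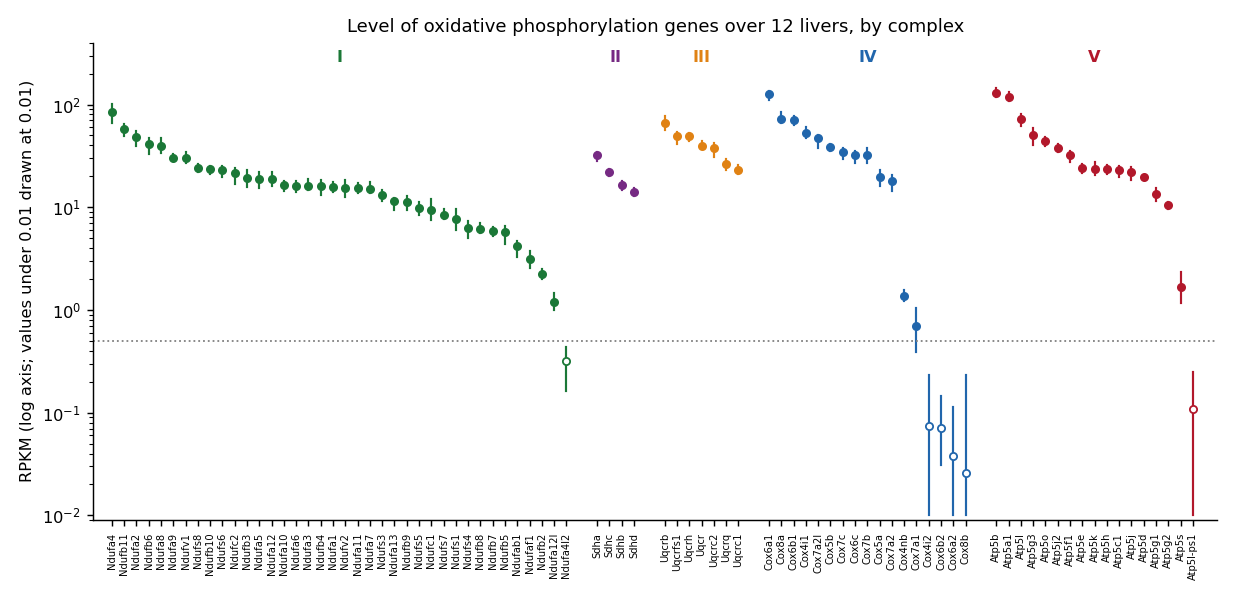
Level of the genes, grouped by complex I to V, with 1 gene not shown. The vertical axis is RPKM on a log axis, points are means of 12 libraries, lines run from the lowest to the highest library, open points did not pass the filter, and the dotted line marks 0.5 RPKM. Most genes lie far above the dotted line, and the open points are the 5 isoforms and the processed copy Atp5l-ps1.

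In females, the ARE-Del livers held slightly less of most of these transcripts, and little of that passed the test gene by gene. As deposited, 4 of the 78 genes were called lower and 1 higher in ARE-Del than in WT (limma, Benjamini-Hochberg adjusted p under 0.05 over all 10568 genes). The 4 are all accessory subunits of complex I: Ndufb5, Ndufa6, Ndufab1 and Ndufb9. The called share, 5.13% lower, is near the background, since 5.53% of all genes tested were called lower and 25.8% higher. That background was larger among abundant genes: with a filter of at least 5 RPKM, 356 of 3366 genes tested were called lower. The median difference over the 78 was -0.10 on the log2(RPKM + 1) scale, with 67 below 0, and the median SE of 1 gene was 0.08. The median over all genes tested was 0.09, so the 78 lay 0.19 below it (-0.19), and 76 of the 78 were below the median gene.

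Ndufb5, a subunit of the membrane arm, had 6.55, 5.05 and 6.08 RPKM in the female WT libraries and 5.0, 4.35 and 4.67 RPKM in the female ARE-Del libraries. The ARE-Del values were all lower, by a small margin at female WT 2. It fell by 0.28 (SE 0.08, adjusted p = 0.0246, limma). In males it had 6.28, 5.87 and 6.59 RPKM in WT and 5.92, 6.27 and 5.96 RPKM in ARE-Del, which overlap.

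Ndufa6, an LYR-motif subunit that binds the acyl carrier protein, had 17.9, 15.4 and 17.5 RPKM in female WT and 14.8, 14.1 and 14.0 RPKM in female ARE-Del. It fell by 0.23 (SE 0.07, adjusted p = 0.0337, limma). Ndufab1 is that acyl carrier protein, which also serves mitochondrial fatty acid synthesis. It had 4.51, 4.08 and 4.29 RPKM in female WT and 3.94, 3.27 and 3.52 RPKM in female ARE-Del, and fell by 0.21 (SE 0.07, adjusted p = 0.0306, limma). In neither gene did the groups overlap.

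Ndufb9, another LYR-motif subunit, is measured in the joined row Rnf139andNdufb9, where reads of Rnf139 cannot be separated from those of Ndufb9. The row had 12.3, 10.5 and 11.6 RPKM in female WT and 9.62, 9.40 and 9.36 RPKM in female ARE-Del, and fell by 0.25 (SE 0.07, adjusted p = 0.0126, limma). The row stayed called when any 1 of the 12 libraries was left out. Ndufb5, Ndufa6 and Ndufab1 each lost the call without female WT 1, female WT 3, female ARE-Del 2 or female ARE-Del 3, with adjusted p of at most 0.0931, 0.109 and 0.109.

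The 1 gene called higher, Atp5s, does not encode a structural subunit. Its product, called coupling factor s, shares the prefix of the ATP synthase genes. Atp5s had 1.2, 1.52 and 1.17 RPKM in female WT and 2.15, 2.04 and 2.32 RPKM in female ARE-Del, with no overlap. It rose by 0.47 (SE 0.09, adjusted p = 0.00122, limma) and stayed called in all 21 alternatives computed for it. In males the values were 1.32, 1.34 and 1.66 RPKM in WT and 1.45, 1.88 and 1.87 RPKM in ARE-Del, a difference of 0.16 (SE 0.09, adjusted p = 0.199, limma).

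**Figure D2:**
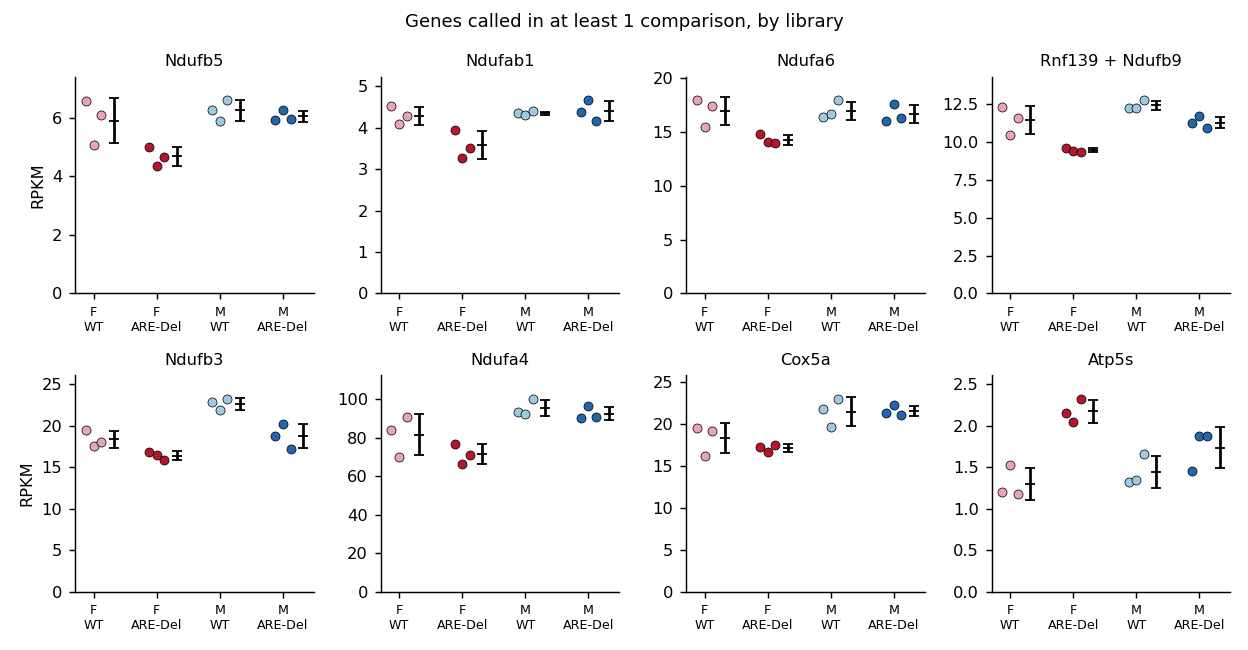
Values of 8 genes in each library, in RPKM, with F for female and M for male. Points are single libraries, and the bar beside each group is its mean and SD over 3 libraries. Ndufb5, Ndufab1, Ndufa6 and the joined Ndufb9 row are lowest in female ARE-Del, while Atp5s is highest there.

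Upstream sequences are shown for 4 of the complex I genes that carry the genotype calls, with Cox6a1 added as the highest gene of complex IV. Each line is the 120 bases before the gene's start on its own strand, from RefSeq with the GRCm38.p6 build, and capitals mark matches to the motifs searched. The stretches are chr15:82354292-82354411 (minus strand) for Ndufa6, chr7:122101849-122101968 (minus) for Ndufab1, chr3:32736943-32737062 (plus) for Ndufb5, chr1:58586277-58586396 (plus) for Ndufb3 and chr5:115348959-115349078 (minus) for Cox6a1.
Ndufa6: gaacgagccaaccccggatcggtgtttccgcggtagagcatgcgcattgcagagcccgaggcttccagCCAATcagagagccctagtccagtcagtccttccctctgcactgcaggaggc
Ndufab1: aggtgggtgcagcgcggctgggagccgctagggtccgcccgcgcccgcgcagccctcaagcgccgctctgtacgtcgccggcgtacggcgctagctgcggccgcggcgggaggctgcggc
Ndufb5: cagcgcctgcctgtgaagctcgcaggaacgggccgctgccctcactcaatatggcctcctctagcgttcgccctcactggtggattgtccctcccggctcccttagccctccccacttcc
Ndufb3: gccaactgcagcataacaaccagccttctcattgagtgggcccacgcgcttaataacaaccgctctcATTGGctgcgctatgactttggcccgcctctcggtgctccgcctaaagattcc
Cox6a1: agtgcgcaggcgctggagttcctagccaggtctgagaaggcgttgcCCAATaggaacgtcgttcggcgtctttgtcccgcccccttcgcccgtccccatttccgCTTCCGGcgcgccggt

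Motifs were searched on both strands in the 250 bases before the start, for the 68 of 84 genes with an entry in the RefSeq table and for all 27025 genes in it. The core of the NRF1 site, CGCATGCG, was found in 6 of the 68 (8.82%) and in 1.58% of all genes. The core of the ETS site bound by GABPA, CCGGAAG, was found in 12 (17.6%) and in 7.05% of all genes. NRF1 and GABPA (NRF2) are known regulators of respiratory chain genes. The CCAAT box was found in 29 (42.6%) and in 34.5% of all genes. In the stretches printed, CCAAT boxes lie in Ndufa6, Ndufb3 (as its reverse complement) and Cox6a1, Cox6a1 also holds an ETS core in reverse complement, and Ndufab1 and Ndufb5 hold none of these motifs. The 27025 genes were not limited to those expressed in liver or matched by level, so the shares do not show a trait particular to these genes. A match in these letters is not a bound site, and the table's starts were not tested in these livers.

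By complex, the 4 genes called lower in females as deposited were all of complex I, and complexes II to V had 0 called lower by limma (0, 3, 2 and 4 genes with an unadjusted p under 0.05, in that order). Those unadjusted counts take either direction, and 4416 of all 10568 genes tested had such a p in females. Whether complexes differ was not tested. The median log2 difference was -0.11 in complex I (38 genes tested), -0.08 in complex II (4 genes), -0.11 in complex III (7 genes), -0.05 in complex IV (13 genes) and -0.09 in complex V (16 genes). Core subunits, which carry the electrons or the catalysis, had a median of -0.09 (20 genes), and accessory subunits -0.11 (52 genes). All 7 genes of complex III were below 0. The largest of them in absolute size was Uqcrc2, a scaffold subunit, with 41.9, 35.8 and 38.3 RPKM in WT and 35.1, 31.1 and 33.3 RPKM in ARE-Del (-0.21, SE 0.08, adjusted p = 0.0695, limma). In complex II, Sdha had 34.5, 30.9 and 32.3 RPKM in WT and 30.9, 28.2 and 29.9 RPKM in ARE-Del (-0.13, SE 0.07, adjusted p = 0.193, limma), while Sdhc was even between the groups (0.00, SE 0.07). In complex V, Atp5g3 had the lower values in ARE-Del, with 55.5, 45.4 and 49.0 RPKM against 44.6, 40.5 and 44.2 RPKM (-0.21, SE 0.08, adjusted p = 0.0809, limma). The other genes for subunit c did not pass the test in females, at -0.04 for Atp5g1 and 0.07 for Atp5g2 (both SE 0.07 to 0.08). The size of the difference had no visible relation to the level, with a Spearman rho of 0.06 across the 78 genes, which share libraries and are not replicates.

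Within complex I, the core subunits that carry electrons from NADH to ubiquinone were mixed in sign. As deposited, none passed the test in females. Ndufv2 had 15.6, 13.7 and 16.5 RPKM in WT and 13.8, 13.0 and 12.7 RPKM in ARE-Del (-0.20, SE 0.08, adjusted p = 0.0829, limma). Ndufv1, the NADH-binding flavoprotein, was at -0.10 and Ndufs1, the large iron-sulfur subunit, at -0.12. Ndufs3, Ndufs7 and Ndufs8 were at 0.05, 0.01 and 0.02, each with an SE of 0.07 to 0.08, so these 3 lay below the median gene but not below 0. Ndufb11, the highest gene of the membrane arm, had 64.7, 55.2 and 62.3 RPKM in WT and 54.8, 52.4 and 49.2 RPKM in ARE-Del, with no overlap, and missed the threshold (-0.21, SE 0.09, adjusted p = 0.0753, limma).

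In complex IV the nuclear genes encode only accessory subunits, since the catalytic ones are made in the mitochondrion. The highest genes differed little in females, with Cox6a1 at 135, 110.0 and 131 RPKM in WT and 125, 113 and 125 RPKM in ARE-Del (-0.05, SE 0.09). Cox8a was at 0.01, Cox6b1 at -0.04 and Cox4i1, the subunit that binds regulatory nucleotides, at -0.09. Cox6c had the lowest value of the liver subunits, with 32.4, 29.3 and 33.9 RPKM in WT and 29.7, 28.1 and 27.2 RPKM in ARE-Del, which overlap (-0.16, SE 0.07, adjusted p = 0.0994, limma). The muscle isoform Cox7a1 was at -0.24 (SE 0.11, adjusted p = 0.115, limma), from levels of 1.04 RPKM or less.

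In complex V the catalytic head and the membrane part both held genes near 0. The head subunits Atp5a1 and Atp5b were at -0.01 and -0.07 in females and at 0.15 and 0.11 in males, none of them called. Atp5k, the small subunit e that helps form dimers of the synthase, had 27.3, 22.9 and 26.3 RPKM in female WT and 22.9, 21.4 and 20.7 RPKM in female ARE-Del (-0.22, SE 0.09, adjusted p = 0.0715, limma). It was the lowest value of complex V in that comparison, and female WT 2 and female ARE-Del 1 were level.

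How many genes are called depends on what they are read against. The deposited scaling leaves the median gene 0.09 higher in female ARE-Del than in female WT. When each library was shifted on the log2 scale so that the median over all tested genes of its difference from the gene means was 0 (a setting chosen after the data were seen), 49 of the 78 were called lower and 1, Atp5s, higher. That is 62.8%, against 15.5% of all genes tested called lower in the same setting. By complex the called lower were 26 of 38 in complex I, 2 of 4 in complex II, 4 of 7 in complex III, 5 of 13 in complex IV and 12 of 16 in complex V. By class they were 12 of 20 core and 33 of 52 accessory subunits, and within complex I 4 of 7 and 20 of 29. The strongest in this setting was again the Rnf139andNdufb9 row, which fell by 0.35 (SE 0.05, adjusted p = 0.000218, limma). The other 3 scalings gave 43, 67 and 68 called lower (quantile normalization, centring each library on its median gene and median-of-ratios). Of all genes tested, 23.6%, 25.1% and 19.5% were then called lower, in the same order. These scalings put the median gene below 0 in females, at -0.0673, -0.075 and -0.0331.

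The distance to the median gene also depends on the genes that define it. These transcripts are abundant. Among the 1761 genes with a mean of at least 10 RPKM, the median female difference was 0.00, and the 63 oxidative phosphorylation genes among them lay 0.10 below it (-0.10), with 54 of 63 below. Among the 3007 genes with a mean of at least 5 RPKM the distance was -0.13.

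**Figure D3:**
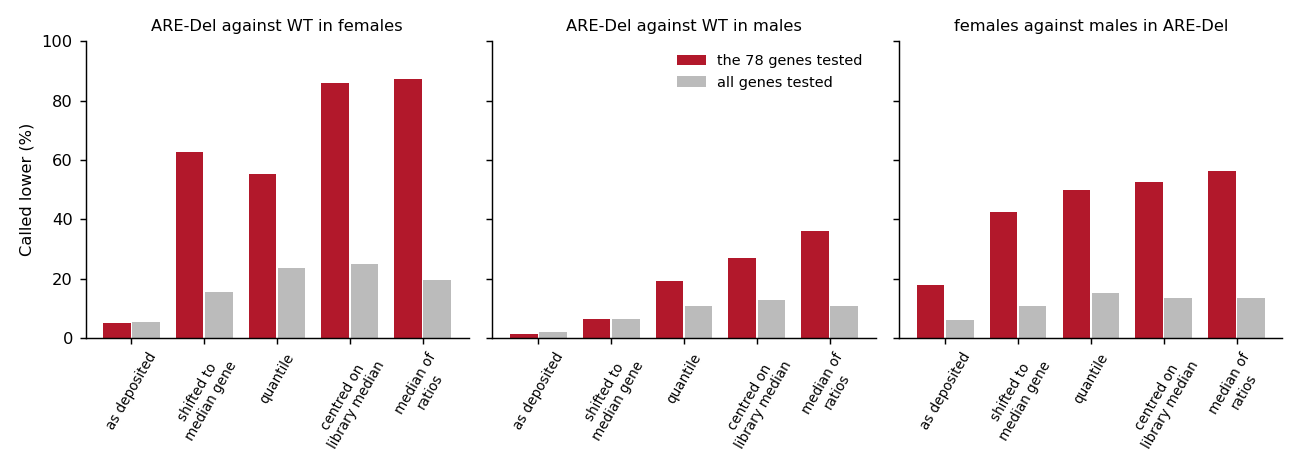
Share called lower (limma, adjusted p under 0.05) under 5 scalings, in percent, for 3 comparisons. Red bars are the 78 oxidative phosphorylation genes and grey bars all genes tested. In females the red bar goes from 5.13% as deposited, beside 5.53% of all genes, to between 55.1% and 87.2% under the other scalings, beside 15.5% to 25.1% of all genes.

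Single libraries moved the count as deposited. Female WT 2 was the lowest of its group in 70 of the 78 genes, and female WT 1 the highest in 57. Without female WT 2, 21 of these genes were called. Only 2 were without female WT 1, female WT 3, female ARE-Del 2 or female ARE-Del 3. Over all genes tested, 584 were called lower as deposited and 721 without female WT 2. Without the libraries that left 2 calls it was 392, 427, 399 and 387, in that order. In the shifted setting the count of these genes was 47 without female WT 2. It was 35 without female ARE-Del 2, the library that lacked Xist. The count fell to 33 without female WT 3 and to 29 without female ARE-Del 3. Over all genes tested, 1465, 1235, 1319 and 1108 were then called lower, in the same order, against 1635 with all libraries. The distance of the 78 from the median gene was -0.21 without female WT 2 and -0.18 without female ARE-Del 2. Of the X-linked members, Ndufa1 had 15.0, 15.9 and 14.0 RPKM, Ndufb11 54.8, 52.4 and 49.2 RPKM and Cox7b 32.2, 31.1 and 29.8 RPKM in female ARE-Del 1, 2 and 3. Female ARE-Del 2 was inside the range of the other 2 libraries for Ndufb11 and Cox7b, and above it for Ndufa1.

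In males, the same transcripts showed almost no difference between the genotypes as deposited. The median over the 78 was 0.00, with 38 below 0 and 40 above, and by complex it was 0.00, 0.04, -0.01, 0.00 and 0.02 from I to V. Only Ndufb3, an accessory subunit of the membrane arm of complex I, was called, and it was lower (1.28%, against 2.04% of all genes tested called lower and 19.5% higher). Ndufb3 had 22.8, 21.9 and 23.3 RPKM in male WT and 18.8, 20.2 and 17.2 RPKM in male ARE-Del, with no overlap. It fell by 0.26 (SE 0.07, adjusted p = 0.0246, limma). The call was lost without male WT 1, male WT 3, male ARE-Del 1 or male ARE-Del 3, with adjusted p of at most 0.0992. In females Ndufb3 had 19.5, 17.5 and 18 RPKM in WT and 16.9, 16.5 and 15.9 RPKM in ARE-Del (-0.15, SE 0.07, adjusted p = 0.139, limma).

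Against the median gene, the male values were also low, but less so. The median gene was 0.10 higher in ARE-Del, so the 78 lay at -0.10 from it, with 71 below. In the shifted setting 5 were called lower, 6.41%, beside 6.45% of all genes tested, a share near the background. The count was 2 without male WT 1 or male WT 3 and 3 without male ARE-Del 2 or male ARE-Del 3. It was 9 without male WT 2. Over all genes tested, 363, 375, 635, 389 and 562 were then called lower, in the same order. Atp5g1 was the highest of the subunit genes, with 11.6, 13.0 and 12.5 RPKM in WT and 14.4, 14.4 and 12.9 RPKM in ARE-Del, which overlap (0.16, SE 0.08, adjusted p = 0.168, limma).

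The difference between the sexes in the genotype effect was tested directly and no gene passed. The interaction (the female difference minus the male difference) had 0 calls among the 78 by limma, beside 0.568% of all genes tested called in either direction. It also had 0 calls in each alternative run, and 2 genes had an unadjusted p under 0.05, Atp5s (0.30, SE 0.12, adjusted p = 0.339) and Ndufab1 (-0.22, SE 0.09, adjusted p = 0.377). Of all 10568 genes tested, 1231 had an unadjusted p under 0.05 in the interaction. The median interaction over the 78 was -0.11, with 68 below 0, while the median gene was at 0.00. Among genes with a mean of at least 10 RPKM that distance was -0.03. The median SE of an interaction is 0.11 for these genes, larger than in a comparison of a pair of groups. A larger female than male effect was therefore not shown for any single gene.

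**Figure D4:**
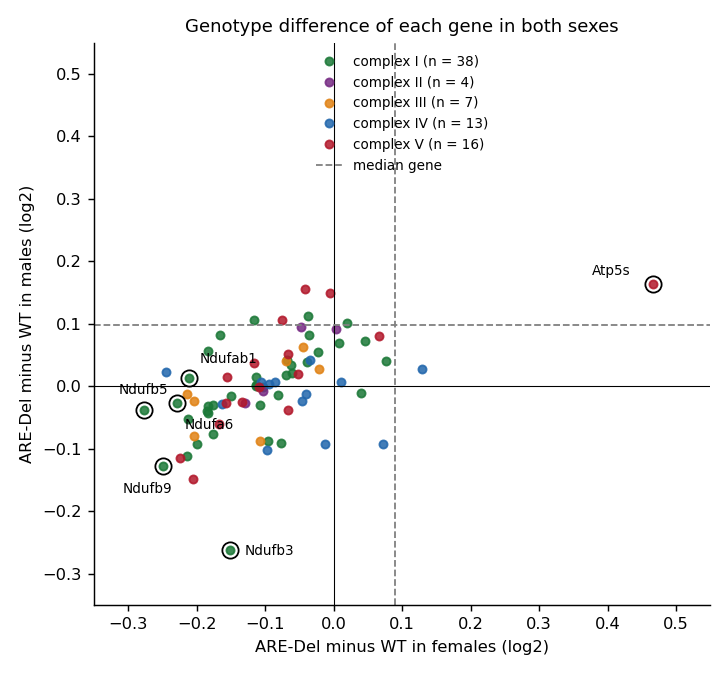
Genotype difference (ARE-Del minus WT, log2(RPKM + 1)) of each of the 78 genes in females (horizontal) and males (vertical), coloured by complex. Dashed lines mark the median gene of each sex, and ringed genes were called in females or males. Most points lie left of 0 in females and around 0 in males, and Atp5s lies apart on the right.

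Per library, these genes took a smaller share of the summed expression in female ARE-Del than in any other group. The 84 rows made up 1.29%, 1.21% and 1.24% of summed RPKM in female WT and 1.09%, 1.00% and 1.07% in female ARE-Del. In males they made up 1.33%, 1.28% and 1.43% in WT and 1.27%, 1.25% and 1.19% in ARE-Del. The groups did not overlap in either sex. In absolute terms the sums overlapped in females, with 2459, 2106 and 2345 RPKM in WT and 2232, 2096 and 2148 RPKM in ARE-Del. Summed RPKM itself was 174600 to 190500 in female WT and 201300 to 208600 in female ARE-Del, and the part of that higher total in the share was not tested. The sums by complex over the 12 libraries ran from 660 to 813 RPKM for complex I, 78 to 91.5 for complex II, 260.4 to 314 for complex III, 480.0 to 590.5 for complex IV and 581 to 700.4 for complex V.

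**Figure D5:**
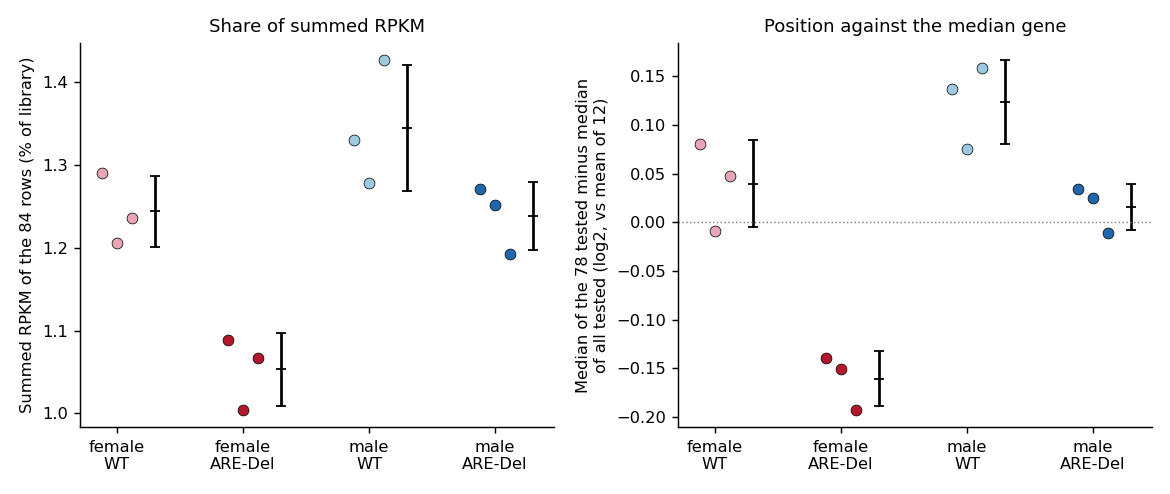
Left, summed RPKM of the 84 rows as a percent of the library. Right, median log2 difference of the 78 tested genes from their mean over 12 libraries, minus the same median over all tested genes. Points are libraries and bars the mean and SD over 3. The female ARE-Del libraries, at -0.14, -0.15 and -0.19 on the right, are the lowest on both axes.

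Markers of other cell types were summed in the same libraries. Monocyte and macrophage markers (13 genes) summed to 93.7 to 150.4 RPKM in female WT, 504 to 588 RPKM in female ARE-Del, 65.7 to 108 RPKM in male WT and 293 to 368 RPKM in male ARE-Del. Lymphocyte markers (14 genes) summed to 2.5 to 3.98, 12.2 to 18, 2.01 to 2.96 and 8.25 to 12.3 RPKM in the same order. Neutrophil markers (8 genes) summed to 1.79 to 5.86, 4.90 to 13.0, 1.37 to 3.59 and 2.43 to 5.78 RPKM, and stellate, fibroblast and endothelial markers (11 genes) to 18.3 to 33.8, 32.7 to 42.9, 13.2 to 19.8 and 22.2 to 35.2 RPKM. As tested, 11 of 11 monocyte and macrophage markers and 8 of 9 lymphocyte markers were called higher in female ARE-Del, and 10 and 7 in male ARE-Del. Without female ARE-Del 2, 11 and 9 were called higher in females. Erythroid markers (4 genes) summed to 69.0 to 142, 58.6 to 106, 80.7 to 109 and 54.4 to 80.4 RPKM. The sums of 2 lists rest on single genes: the cholangiocyte sum (6 genes, 5.84 to 14.8 RPKM over the 12 libraries) on Spp1 at 5.17 to 13.7 RPKM, with Krt7 and Krt19 at most 0.241 RPKM, and the adipocyte sum (5 genes, 1.17 to 5.94 RPKM) on Fabp4 at 1.11 to 5.94 RPKM, with 3 of the 5 markers at 0 in all ARE-Del libraries of either sex. The hepatocyte sum, of which albumin was 16220 to 34500 RPKM, was 39470 to 41050 RPKM in female WT against 46660 to 50680 RPKM in female ARE-Del, and 28160 to 29390 RPKM against 28970 to 37890 RPKM in males. Gene by gene the 12 hepatocyte markers were mixed in females: 6 were below 0, 3 were called higher and 1, Apoa2, lower (-0.45, SE 0.10, adjusted p = 0.00412, limma), and in the shifted setting 3 were higher and 3 lower. Without female ARE-Del 2, 3 hepatocyte markers were called higher and 1 lower in females as deposited. The part of these cell types in the differences above was not tested. In bulk tissue, fewer cells of a type and less RNA per cell cannot be told apart.

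Between the sexes, the median of these transcripts was lower in females in both genotypes. In WT livers the median female minus male difference over the 78 was -0.04, and 1 gene was called lower, 1.28%, against 3.04% of all genes tested. That gene was Ndufb3, with the WT values given above, which fell by 0.29 from males to females (SE 0.07, adjusted p = 0.0276, limma). It lost the call without female WT 2, female WT 3, male WT 1 or male WT 3. The genotype call of Ndufb3 in males draws on the same male WT libraries, so these calls are not independent. In the shifted setting 6 were called lower, 7.69%, against 5.75% of all genes tested. The count was 1 or 2 without female WT 1, female WT 2, male WT 1 or male WT 3. Over all genes tested, 389, 389, 290 and 402 were then called lower, in that order.

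In ARE-Del livers 14 of the 78 were called lower in females and 0 higher, 17.9%, against 6.02% of all genes tested called lower. The background was larger among abundant genes: with a filter of at least 5 RPKM, 360 of 3366 genes tested were called lower. The median difference was -0.13 while the median gene was at 0.04, and 75 of the 78 lay below the median gene. Of the 14, 10 are in complex I (Ndufa4, Ndufa5, Ndufab1, Ndufb4, Ndufb5, the Ndufb9 row, Ndufc1, Ndufc2, Ndufs4 and Ndufv2), 1 in complex III (Uqcrfs1) and 3 in complex IV (Cox5a, Cox6c and Cox7a2). Complexes II and V had none. Only Ndufv2, which carries an iron-sulfur cluster of the NADH-oxidising module, and Uqcrfs1 are core subunits. In the shifted setting 33 were called lower, 42.3%, against 10.9% of all genes tested.

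Ndufs4, an accessory subunit needed for a stable complex I, had the smallest p of this comparison. It had 6.14, 4.97 and 5.62 RPKM in female ARE-Del and 6.88, 7.32 and 7.03 RPKM in male ARE-Del, with no overlap, and was lower in females by -0.30 (SE 0.08, adjusted p = 0.0158, limma). Ndufa4 had the largest difference. It had 76.9, 66.6 and 71.1 RPKM in female ARE-Del and 90.4, 96.4 and 90.9 RPKM in male ARE-Del (-0.37, SE 0.10, adjusted p = 0.0187, limma). In WT its values were 84.2, 70.0 and 90.8 RPKM in females and 93.4, 92.6 and 100.4 RPKM in males (-0.23, SE 0.10, adjusted p = 0.167, limma).

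Cox5a, a matrix-side subunit of cytochrome c oxidase, had 17.3, 16.6 and 17.5 RPKM in female ARE-Del and 21.3, 22.2 and 21.1 RPKM in male ARE-Del (-0.31, SE 0.08, adjusted p = 0.0183, limma). Cox7a2 was lower by -0.30 (SE 0.08) and Cox6c by -0.26 (SE 0.07), both with adjusted p of 0.0187 to 0.0189 by limma. Without female ARE-Del 2 the differences were -0.23 for Ndufs4 (adjusted p = 0.0566), -0.32 for Ndufa4 (0.0602), -0.29 for Cox5a (0.0522) and -0.28 for Cox7a2 (0.0566), none of them called by limma, while Cox6c kept its call at -0.26 (adjusted p = 0.0442). Whether the sex difference itself differs between WT and ARE-Del is the same interaction as above, in which no gene passed. This comparison shares the female ARE-Del libraries with the genotype comparison in females, so both draw on the same 3 values. The count of 14 was 0 without male ARE-Del 2, 1 without female ARE-Del 2 and 3 without female ARE-Del 3. It was 7 without male ARE-Del 1 and 22 without female WT 2. Over all genes tested, 305, 426, 397, 522 and 709 were then called lower, in the same order. In the shifted setting the count was 19 without female ARE-Del 3 or male ARE-Del 2. There 708 and 651 of all genes tested were called lower.

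Of the 6 rows that share the prefix without being subunits, 5 were tested, and Atp5s was the only 1 called as deposited, in females. The processed copy Atp5l-ps1 did not pass the filter. Ndufaf1, an assembly factor of complex I, had 2.55 to 3.74 RPKM over the 12 libraries, and Ndufa12l, known as the assembly factor Ndufaf2, 0.987 to 1.47 RPKM. Cox7a2l, which helps join complexes III and IV into supercomplexes, had 37.6 to 49.99 RPKM. The joined row Cox4nband1190005I06Rik, whose first gene lies beside Cox4i1 and belongs to a membrane protein insertase, had 1.21 to 1.55 RPKM. Shifted to the median gene, Ndufaf1 (-0.25, adjusted p = 0.0142), Ndufa12l (-0.17, 0.0372) and the Cox4nb row (-0.20, 0.0138) were called lower in females by limma, and the Cox4nb row also in males (-0.21, adjusted p = 0.0223). Of the 72 subunits, 4 (5.56%) were called lower in females as deposited, near the 5.53% of all genes tested. In the shifted setting 45 were (62.5%), beside 15.5% of all genes tested.

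Other mitochondrial genes, from lists by pathway, were read beside these in the same fit, against the 5.53% of all genes called lower and 25.8% called higher in females, or 15.5% and 17.8% in the shifted setting. Of 10 further subunits and electron carriers, 3 were called lower and 0 higher in females, and 7 lower in the shifted setting, with a median -0.24 from the median gene. The 3 were Etfdh, which passes electrons from fatty acid oxidation to ubiquinone (-0.32, SE 0.10), Cyc1, the cytochrome c1 of complex III (-0.25, SE 0.08), and Etfa (-0.23, SE 0.08), with adjusted p of 0.0260 to 0.0352 by limma. Of 18 tricarboxylic acid cycle genes, 2 were called lower (Sucla2, -0.27, and Pdhb, -0.26) and 0 higher, and 8 lower in the shifted setting (median -0.18). Without female ARE-Del 2 none of these 5 genes was called by limma, at -0.23 (Etfdh), -0.22 (Cyc1), -0.18 (Etfa), -0.25 (Sucla2) and -0.19 (Pdhb), with adjusted p of 0.0505 to 0.139. Of 25 assembly factors 0 were called by limma as deposited and 8 lower in the shifted setting (median -0.12). Of 74 genes of the mitochondrial ribosome, 1 was called higher and 1 lower as deposited, and 1 higher and 22 lower in the shifted setting (median -0.13). Without female ARE-Del 2, 2 of these 74 were called higher and 1 lower as deposited.

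Regulators, import genes and carriers are read against the same shares. Of 12 regulators of mitochondrial biogenesis, Esrra was called higher in females (0.25, SE 0.08, adjusted p = 0.0304, limma). That call was lost in the shifted setting (0.15, adjusted p = 0.240), where 0 regulators were higher and 2 lower, and without female ARE-Del 2 (0.16, adjusted p = 0.103). In males Ppargc1a, the coactivator PGC-1 alpha, was the only regulator called (0.43, SE 0.10, adjusted p = 0.00887, limma). Of 19 genes of mitochondrial protein import, 2 were called higher in females, Timm17a (0.30) and Timm10 (0.32), and Timm17a also in males (0.31). Timm10 was no longer called in females without female ARE-Del 2 (adjusted p = 0.0766, limma) or in the shifted setting (0.106), where 1 import gene was higher and 5 lower.

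Of 13 carriers and uncouplers, 3 were called higher and 3 lower in females. The higher ones were Ucp2 (1.33, SE 0.11), the adenine nucleotide carrier Slc25a4 (0.82, SE 0.11) and Atpif1, the inhibitor of ATP synthase (0.48, SE 0.07), with adjusted p of at most 0.000343 by limma, and each kept its call without female ARE-Del 2. The lower ones were the carnitine-acylcarnitine carrier Slc25a20 (-0.53, SE 0.15), the dicarboxylate carrier Slc25a10 (-0.51, SE 0.09) and the aspartate-glutamate carrier Slc25a13 (-0.40, SE 0.09). Without female ARE-Del 2 Slc25a20 was not called (-0.37, adjusted p = 0.0576, limma). In males 3 were higher, Ucp2 (0.90, SE 0.11), Slc25a4 (0.48, SE 0.11) and Atpif1 (0.48, SE 0.07), and Slc25a10 was lower (-0.88, SE 0.09, adjusted p = 3.46e-05, limma). Ucp2 is also expressed in macrophages, whose markers moved with it, and their part was not tested.

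Lists outside the mitochondrion are set against the same shares. Of 17 glycolysis genes, 8 were called higher and 1 lower in females, led by Pkm2 (1.74, SE 0.12) and Hk3 (2.0, SE 0.14), which leukocytes express, and 7 higher and 0 lower in males. Shifted, these were 7 and 2 in females and 7 and 0 in males. Without female ARE-Del 2, 7 glycolysis genes were called higher and 0 lower in females. Of 85 rows with a cytosolic ribosomal prefix, 32 were called higher and 1 lower in females as deposited, 24 and 0 without female ARE-Del 2, and 14 and 4 in the shifted setting. In males 5 were higher and 0 lower as deposited, and 0 and 2 in the shifted setting, where 10.3% of all genes were called higher. That prefix also takes in ribosomal S6 kinases, such as Rps6ka1 (0.41, SE 0.08) and Rps6ka3 (0.31, SE 0.06), which are not ribosomal proteins. Of 8 cytosolic housekeeping genes, 4 were called higher and 0 lower in females, and 3 higher and 0 lower in males. Shifted, these were 4 and 0 in females and 2 and 0 in males. Without female ARE-Del 2 the housekeeping counts in females stayed at 4 and 0.

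In males, where 19.5% of all genes were called higher and 2.04% lower, 0 of 10 further subunits and carriers and 0 of 25 assembly factors were called by limma as deposited, and 0 and 3 were lower in the shifted setting. Of 18 tricarboxylic acid cycle genes 2 were higher (Idh2, 0.38, and Idh3a, 0.31), and of 74 mitochondrial ribosome genes 1 was; shifted, these lists had 1 higher and 1 lower, and 0 higher and 7 lower. The interaction had 0 calls by limma in each of these lists as deposited, except 1 in the housekeeping list (Actb, 0.65, SE 0.13, adjusted p = 0.04998), which was lost without female ARE-Del 2 (adjusted p = 0.0690).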

How the data were processed

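Liver RNA of 12 samples was extracted with Trizol and prepared with an Illumina TruSeq kit, per the labels' protocols. The authors made the deposited RPKM with Trimmomatic 0.30, TopHat2 2.0.8 on the mm9 assembly, Partek and GenomeStudio 6.6, per the submitters' processing notes. The sources used here give neither how reads were counted, nor strand, nor totals. The authors' scaling was kept. No column of another sample was used.

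The R 4.3.3 package limma 3.58.1 was run on log2(RPKM + 1) with a mean for each of the 4 groups in all 12 libraries, with variances that follow the mean and Benjamini-Hochberg adjustment at 0.05 within each of 5 comparisons, over the 10568 genes with at least 0.5 RPKM in at least 3 libraries. A gene can pass this filter through 1 group alone. Log2 differences on this scale understate changes of low genes, and their errors are SE. Errors of RPKM are SD over 3 libraries. The script was tested on simulated data. Summaries and figures used matplotlib 3.10.9, numpy 2.4.6 and pandas 2.3.3 under Python 3.11.15.

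The members, pathway lists, marker lists and rules were chosen with earlier results of these data known. The rule for named genes took the 3 highest per complex, the called genes with the smallest p, all Sdh genes, isoforms with their liver partners, the subunit c genes and rows that are not subunits. Counts include values that are not reported here. Members named beyond it were chosen after their values were seen. Marker lists (hepatocyte, monocyte and macrophage, lymphocyte, neutrophil, cholangiocyte, stellate, fibroblast and endothelial, muscle, adipocyte, erythroid) were summed per library, leaving out markers joined with another gene. Upstream sequences came from RefSeq (GRCm38.p6), matched by symbol. Alternatives covered the pseudocount, the filter, the scaling, the variance model, the groups fitted, a replicate block and leaving out each library. The shift of each library to the median gene and the median gene of abundant genes were added after the data were seen, as were the list values without female ARE-Del 2.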

Additional observations from a re-analysis of the deposited data

How the results depend on the processing

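The number of genes called in females (5 as deposited) was 3 with a filter of at least 5 RPKM, 8 without the variance trend, 1 with only the groups of the comparison, 44 with quantile normalization, 50 with the shift to the median gene, 68 with centring on the library median and 69 with median-of-ratios scaling. As deposited, 5.53% of all genes tested were called lower in females. This share was 23.6% with quantile normalization, 15.5% with the shift, 25.1% with centring and 19.5% with median-of-ratios. It was 356 of 3366 genes with the stricter filter, 609 of 10568 without the trend and 433 of 10302 with only the groups compared. In males (1 as deposited) the count was 5 with the shift, 15 with quantile normalization, 21 with centring and 28 with median-of-ratios. Of all genes tested in males, 2.04% were called lower as deposited, and 6.45%, 10.9%, 12.7% and 10.6% in the same order. Between the sexes in WT (1 as deposited) it was 2 with the stricter filter, 6 with the shift, 9 with centring, 14 with median-of-ratios, 15 with quantile normalization, 0 with only the groups compared and 0 with the replicate block. For all genes tested in WT the share called lower was 3.04% as deposited, 5.75% with the shift and 6.76% with centring. It was 7.86% with median-of-ratios and 7.64% with quantile normalization. Between the sexes in ARE-Del (14 as deposited) the count was 33 with the shift and 39 with quantile normalization. It was 41 with centring and 44 with median-of-ratios. For all genes tested the share was 6.02% as deposited, and 10.9%, 15.3%, 13.6% and 13.5% in the same order. Leaving out 1 library at a time gave 2 to 21 calls in females, 0 to 1 in males, 0 to 1 between the sexes in WT and 0 to 22 between the sexes in ARE-Del, and in the shifted setting 29 to 48, 2 to 9, 1 to 7 and 19 to 35. With 1 library left out, 10353 to 10547 genes were tested in all. Of these, 387 to 721 were called lower in females and 114 to 257 in males. Between the sexes it was 196 to 346 in WT and 305 to 709 in ARE-Del. Shifted, these were 1108 to 1641, 363 to 696, 290 to 661 and 651 to 1203, in the same order. Among the oxidative phosphorylation genes the interaction had 0 calls in each of these settings.

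The distance of the oxidative phosphorylation genes from the median gene was below 0 in each comparison and setting. Several settings could not change it. The shift and the centring move all genes of a library alike, and the replicate block and the variance trend leave the differences as they are. The settings of the filter test other sets of genes than the 78 and the 10568. In females (-0.19) it was -0.24 with a pseudocount of 0.1, -0.11 without a filter, -0.14 with the stricter filter, -0.25 with median-of-ratios and -0.11 with quantile normalization, and -0.21 to -0.17 with 1 library left out. In males (-0.10) it was -0.14 with the pseudocount of 0.1, -0.0237 without a filter, -0.15 with median-of-ratios, and -0.133 to -0.0794 with 1 library left out. For the interaction (-0.11) it was -0.0594 with the stricter filter, -0.0399 with quantile normalization, and -0.13 to -0.08 with 1 library left out. Between the sexes in WT it was -0.0512 without a filter and -0.11 to -0.06 with 1 library left out, and in ARE-Del -0.14 without a filter, -0.14 with quantile normalization, and -0.18 to -0.16 with 1 library left out.

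Of all calls in females 82.3% were higher as deposited, 53.4% with the shift, 46.2% with median-of-ratios, 39.3% with quantile normalization and 36.6% with centring. In males these were 90.5%, 61.4%, 50.6%, 44.5% and 40.0%. The cause of these shifts was not tested. The 21 single-gene calls had 459 alternatives, of which 365 kept the call, 94 lost it and 0 changed direction. The replicate numbers did not pair the libraries: over 18 pairs of the same number the correlation of deviations ran from -0.29 to 0.24, 5 were over 0.1, and 0 libraries correlated best with their own number. With the replicate block 4 oxidative phosphorylation genes were called in females and 1 in males. Between the sexes 0 were called in WT and 11 in ARE-Del. Over all 10568 genes tested, 520, 210, 263 and 521 were called lower, in the same order. With 3 libraries a group and a median SE of 0.08, differences of the size seen here are near the limit of what a single gene can show.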
